A study of Mus musculus with 4 samples.

Results

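Long intergenic non-coding RNAs (lincRNAs) were followed in mouse embryonic stem cells with and without the miR-290 to miR-295 microRNA cluster. A gene was included when GENCODE vM21 gave it the biotype lincRNA and its counts summed to at least 100 over the 4 libraries. The imprinted and host transcripts H19, Meg3, Rian, Mirg, Peg13, Gas5, the Snhg genes and microRNA host genes were left out by name. The deposited counts covered 55421 genes, among which 5621 were lincRNAs, 1526 of these had at least 1 count, 168 reached 100 counts, 10 of those were left out by name and 158 remained. The comparison was between 2 libraries of E14 cells with the cluster knocked out (KO) and 2 libraries of wild-type E14 cells (WT). All 4 libraries came from blastocyst-derived cells of the 129/Ola background, kept in serum with LIF, the cytokine that maintains mouse embryonic stem cells, on gelatin-coated plates without a labelled drug treatment. Poly(A) RNA was read with QuantSeq, a kit whose reads fall close to the 3′ ends of polyadenylated transcripts. The series' text describes biological duplicates, but separate KO clones are not named, so each p-value measures the spread between these libraries, and an effect of 1 clone cannot be told apart from an effect of the deletion.

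lincRNAs are transcribed by RNA polymerase II like messenger RNAs, and most are capped, spliced and polyadenylated, but they hold no long conserved reading frame. Many stay in the nucleus, where they can scaffold nuclear bodies, act on the gene next to them, or be the by-product of an active enhancer. Embryonic stem cells express a set of lincRNAs that falls when the cells differentiate, among them the pluripotency-associated transcripts (Platr genes). The miR-290 to miR-295 cluster is the main microRNA source of these cells, and its members pair through the seed, bases 2 to 8 from the 5′ end, with sites in target RNAs that are then destabilised, mostly in the cytoplasm.

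The microRNA sequences lost in KO are shown because they define the site that was searched for in the lincRNAs. They are RefSeq mature sequences (GRCm38.p6, chromosome 7, plus strand), with the seed in capitals. The first 3 share the seed AAGUGCU, and the other 2 have the seeds AAGUGCA and AAGUGCC. The site for miR-290a-3p was searched apart, and that for bases 2 to 8 of miR-291b-3p was not searched.
miR-291a-3p: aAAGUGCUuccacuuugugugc
miR-294-3p: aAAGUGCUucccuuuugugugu
miR-295-3p: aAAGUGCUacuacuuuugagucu
miR-291b-3p: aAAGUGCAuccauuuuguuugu
miR-290a-3p: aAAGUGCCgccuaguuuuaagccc

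The matching sites in lincRNAs were AGCACTT, which pairs with bases 2 to 8, GCACTTA, which pairs with bases 2 to 7 and has an A opposite base 1, and AGCACTTA, which joins both. The longest annotated transcript of 34 of the 158 lincRNAs held at least 1 of these on its sense strand. The following windows, from GENCODE vM21 transcripts on GRCm38, are shown because they lie in lincRNAs whose level differed between KO and WT. The site is in capitals and each window is written along the transcript.
Neat1, chr19:5833760-5833783, minus strand: gcccacagAGCACTTAtatgtggt
Gm10451, chr12:76450664-76450687, plus strand: gagaagagAGCACTTAttgaggca
A530017D24Rik, chr11:61864989-61865012, minus strand: tgaatctcAGCACTTAggaggcag
Gm10522, chr1:170985869-170985891, plus strand: ttcggtacAGCACTTtggctacc
Platr7, chr10:84548141-84548163, minus strand: acaaagtcAGCACTTccctttgt
Gm48170, chr13:65615898-65615920, minus strand: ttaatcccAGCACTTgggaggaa
Neat1, Gm10451, Gm10522, Platr7 and Gm48170 were higher in KO, and A530017D24Rik was lower.

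The libraries held between 9925557 and 12726123 counts, so that 3 counts correspond to between 0.236 and 0.298 CPM, the count scaled to the size of the library. The 7 plus-strand microRNA genes of the cluster held 0 counts in each KO library and 88 and 39 in the WT libraries, as the labels state. Of 8 embryonic stem cell markers 0 rose (3 at an unadjusted edgeR p below 0.05, and 0 by DESeq2) and 1, Klf4, fell, while 9 of 12 primitive endoderm markers fell. The summed level of those 12 markers was 96.2 and 77.7 CPM in KO and 329 and 309 CPM in WT. Of 6 fibroblast or feeder genes 3 were tested, and these fell (Col1a1, Col5a1 and Thy1). Col3a1 and Postn held 0 counts in every library, and Col1a2 held 4 in WT library 1 and 0 in the rest. Of the other marker lists, 2 of 4 genes of the 2-cell-like state tested rose (Gm8300 and Zscan4d). Of 4 neural genes 1, Pax6, rose, by 5.12 on the log2 scale. In bulk RNA fewer cells of a type and less RNA per cell cannot be told apart, and the part of such cells in the differences below was not tested.

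All 158 lincRNAs passed the filter on low counts and were tested with the other genes. Of these, 17 were higher in KO (10.8%) and 3 were lower (1.90%) by edgeR's quasi-likelihood test at a Benjamini-Hochberg adjusted p below 0.05. Among all 14427 genes tested 7.42% were higher and 4.96% lower, and among the 12112 genes with a summed count of at least 100 the shares were 8.06% and 5.05%. Protein-coding genes of that depth had shares of 8.33% and 5.08%. Of the called lincRNAs, 16 higher and 3 lower ones differed at least 2-fold. The log2 fold change (KO over WT) ran from -3.52 to 3.58 with a median of 0.23, next to -0.0061 over all genes tested. In 60 lincRNAs both KO libraries lay above both WT libraries (29.4% of all genes tested did so, and 30.4% of those with at least 100 counts), in 23 both lay below (28.5% and 28.1%) and in 75 the groups overlapped. The summed count that chose the members uses all 4 libraries without regard to group. Of the 158, 82 reached 100 counts in both groups, 30 in KO alone, 10 in WT alone and 36 in neither group alone. None had under 10 counts in every library of a group. Just inside the threshold lay Ftx and Tbx3os2 with 100 counts each, and just outside it A430073D23Rik with 97 and D730003I15Rik with 96.

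**Figure D1:**
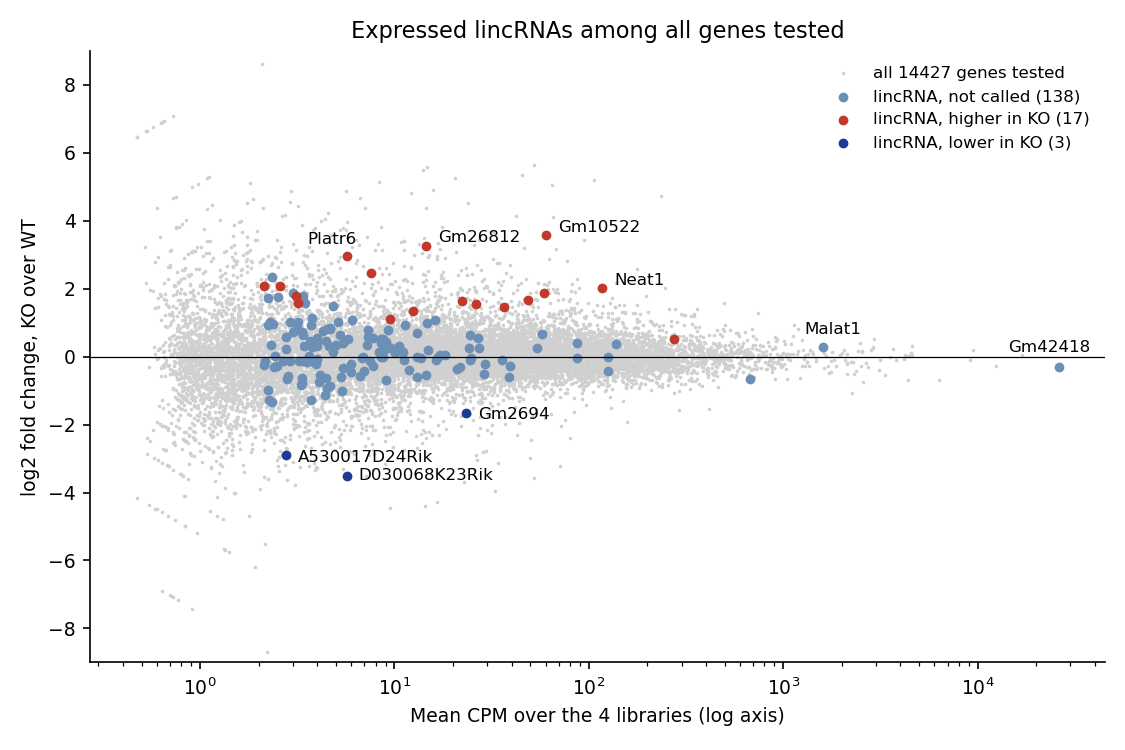
Each point is a gene, with its mean CPM over the 4 libraries on a log axis and its log2 fold change, KO over WT, on the vertical axis. Grey points are the 14427 genes tested, and the coloured points are the 158 lincRNAs, of which 17 were called higher and 3 lower. Most coloured points lie near 0, and Gm42418 lies far to the right of the other lincRNAs.

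The lincRNA with the largest rise was Gm10522 (ENSMUSG00000104340, chr1:170981944-170986466, plus strand), a transcript of 3 exons with no described function. It held 1467 and 1263 counts in the KO libraries and 80 and 122 in the WT libraries. The KO values lay close together and far above both WT values. Its level was 112 ± 5.42 CPM in KO and 9.41 ± 3.86 CPM in WT (SD, n = 2 each), an 11.9-fold difference with a log2 fold change of 3.58 (SE 0.27, edgeR adjusted p = 0.000192). The nearest gene tested was Fcgr2b, which encodes an inhibitory receptor for immunoglobulin G, 5397 bases away on the opposite strand. Fcgr2b also rose, by 2.91 on the log2 scale (SE 0.32, adjusted p = 0.000912). The 889 genes tested on chromosome 1 had a median of 0.27 for KO over WT and of -0.28 for WT library 1 over WT library 2, and the part of this shift in single genes of the chromosome was not tested. The chromosome's 10 lincRNAs had a median of 0.85. Without them 15 lincRNAs were higher and 3 lower, and the median was 0.17 in place of 0.23.

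Gm26812 (chr8:121850194-121860621, plus strand) held 316 and 328 counts in KO and 41 and 20 in WT. Its groups were well apart, at 26.4 ± 2.21 CPM and 2.71 ± 1.01 CPM, and its log2 fold change was 3.27 (SE 0.32, adjusted p = 0.000568). It lies inside the gene model Gm20388, which was listed at 0 counts. The amino acid transporter gene Slc7a5, 20529 bases away, had a log2 fold change of -0.0091 and was not called. 4930591A17Rik on chromosome 2 held 160 and 154 counts in KO and 28 and 23 in WT. Here the libraries of each group were nearly equal, at 12.9 ± 0.39 and 2.31 ± 0.035 CPM, and the log2 fold change was 2.47 (SE 0.33, adjusted p = 0.00234).

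Gm19705, C78283 and Gm48170 are lincRNAs without a described function that rose by smaller amounts. Gm19705 on chromosome 1 held 897 and 911 counts in KO and 334 and 192 in WT, a log2 fold change of 1.66 (SE 0.22, adjusted p = 0.0022). C78283 on chromosome 5 held 718 and 601 counts in KO and 282 and 157 in WT, a log2 fold change of 1.46 (SE 0.23, adjusted p = 0.00544). In both, the WT libraries differed more from each other than the KO libraries did, and the groups did not overlap. Gm48170 on chromosome 13 held 225 and 209 counts in KO and 62 and 91 in WT, with a log2 fold change of 1.33 (SE 0.32, adjusted p = 0.0272). It was not called without KO library 1 (adjusted p = 0.069) or without KO library 2 (adjusted p = 0.0732).

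**Figure D2:**
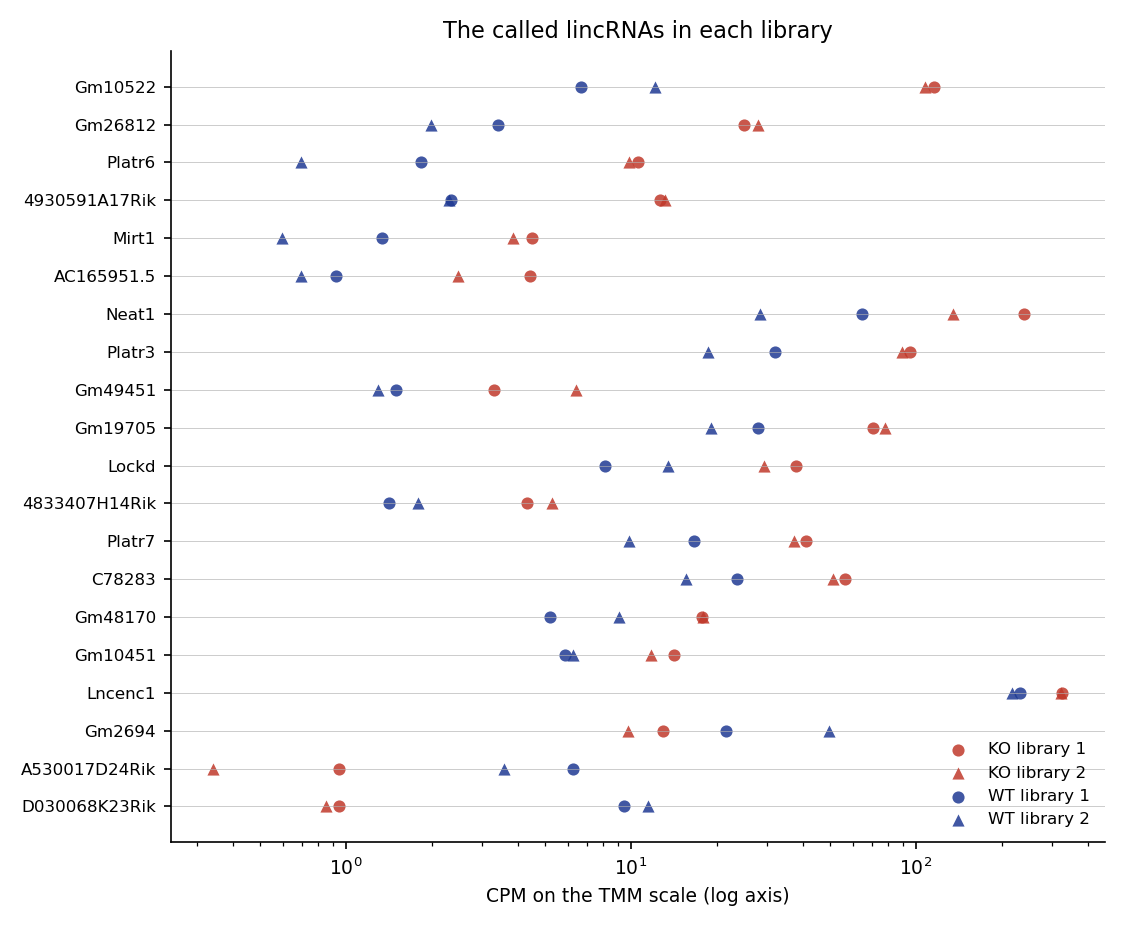
Each row is a called lincRNA and each mark is a library, placed by its CPM after TMM scaling on a log axis, with red for KO and blue for WT, circles for library 1 and triangles for library 2. In the upper 17 rows both red marks lie to the right of both blue marks, and in the lower 3 rows, Gm2694, A530017D24Rik and D030068K23Rik, they lie to the left.

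The Platr genes were defined by transcripts that embryonic stem cells express and lose on differentiation. Of 10 Platr genes among the 158, 3 were higher in KO, 0 were lower and 7 were not called, and all 10 had a positive log2 fold change, with a median of 0.77. At an unadjusted edgeR p below 0.05 these counts were 6 higher and 0 lower, and the DESeq2 test called 4 higher and 0 lower. Platr5 and Platr22 lie on chromosome 1, whose 889 genes tested had a median of 0.27. The part of that shift in their values was not tested. Platr3 on chromosome 2 held 1208 and 1047 counts in KO and 382 and 188 in WT. Platr7 on chromosome 10 held 521 and 436 counts in KO and 199 and 99 in WT. Platr6, also on chromosome 10, held 134 and 115 counts in KO and 22 and 7 in WT. In each of these 3 genes the lower KO library held more than 2 times the counts of the higher WT library, and WT library 2 was the lowest of the 4. The log2 fold changes were 1.86 (SE 0.25, adjusted p = 0.0022) for Platr3, 1.56 (SE 0.27, adjusted p = 0.00762) for Platr7 and 2.97 (SE 0.47, adjusted p = 0.00497) for Platr6. Platr6 was called in every fit with 1 library left out, but its value moved to 3.85 without WT library 1 and to 2.46 without WT library 2.

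Among the Platr genes that were not called, Platr5 held 219 and 252 counts in KO and 87 and 125 in WT (log2 fold change 0.98, adjusted p = 0.0696). Its value was 0.63 without WT library 1 and 1.41 without WT library 2. Platr4 held 386 and 159 counts in KO and 125 and 103 in WT (1.09, adjusted p = 0.0805). KO library 1 alone set much of the Platr4 value, which was 0.40 without that library and 1.56 (adjusted p = 0.00849) without KO library 2. Platr10, with 1253 and 1157 counts in KO and 903 and 753 in WT, had a log2 fold change of 0.39 (SE 0.15, adjusted p = 0.131). Platr22 (0.56), Platr27 (0.32), Platr20 (0.26) and Platr26 (0.20) had smaller positive values. Platr26 was the only Platr gene of the 10 in which KO and WT libraries overlapped. Of the 8 stem cell markers tested Klf4 was called, at -1.59, and the other 7 were not, with log2 fold changes from -0.21 for Tdgf1 to 0.50 for Dppa5a.

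**Figure D3:**
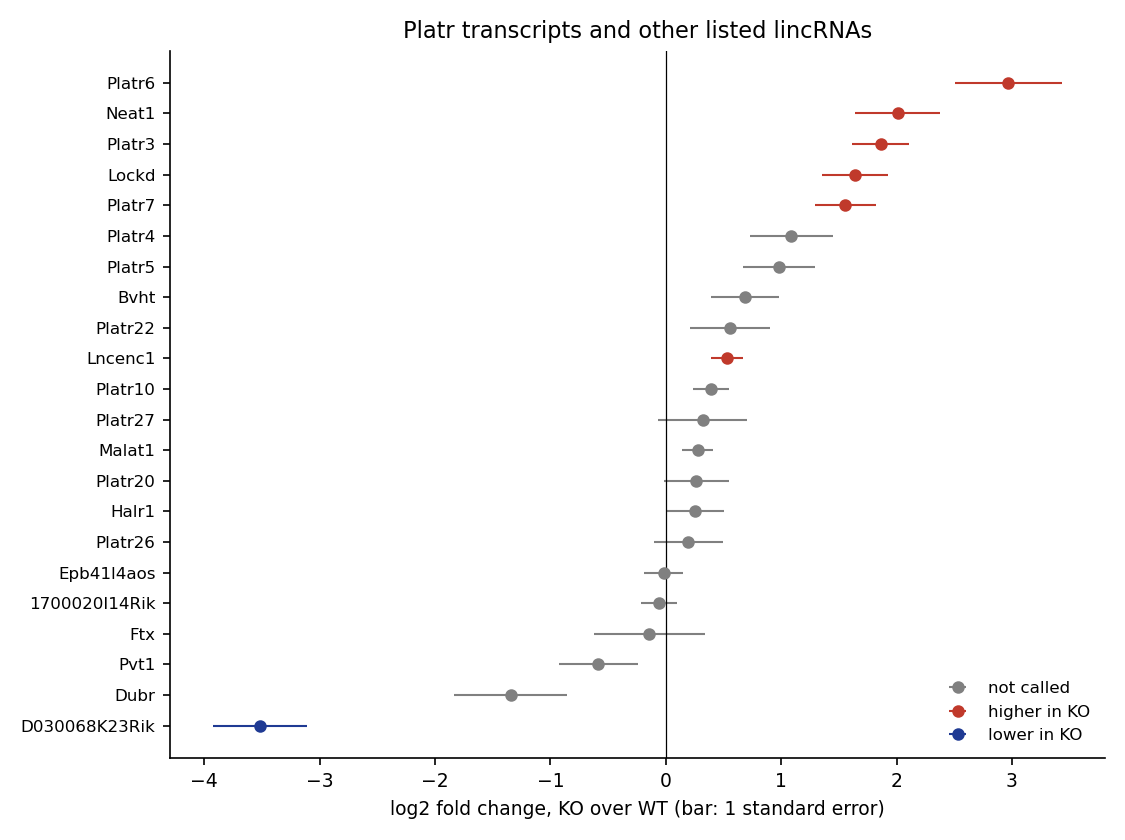
The log2 fold change, KO over WT, of the Platr genes and the other listed lincRNAs is plotted with a bar of 1 standard error on each side. Red marks were called higher and blue marks lower. Platr6 at 2.97 is at the top and D030068K23Rik at -3.52 at the bottom, and the 10 Platr genes all lie to the right of 0.

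Lncenc1, named for its expression in embryonic stem cells, held 4145 and 3776 counts in KO and 2778 and 2184 in WT. Its libraries agreed closely within groups, at 324 ± 2.78 CPM in KO and 225 ± 10.3 CPM in WT. The log2 fold change was 0.53 (SE 0.14, adjusted p = 0.0364), the smallest among the lincRNAs called. It was not called without KO library 1 (adjusted p = 0.244) or without KO library 2 (adjusted p = 0.215).

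Neat1 is the architectural RNA of paraspeckles, nuclear bodies built on its long isoform, and Malat1 is an abundant RNA of nuclear speckles. The genes are neighbours on the minus strand of chromosome 19, 22036 bases apart. Neat1 (chr19:5824708-5845478) held 3050 and 1586 counts in KO and 773 and 286 in WT. Library 1 was higher than library 2 in both groups, and the lower KO value was still above both WT values. Its level was 188 ± 74.0 CPM in KO and 46.5 ± 25.5 CPM in WT, a log2 fold change of 2.01 (SE 0.37, adjusted p = 0.00982). It was called in all 4 fits with a library left out, with values of 2.72 without WT library 1, 2.37 without KO library 2, and 1.54 without KO library 1 or WT library 2.

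Malat1 (chr19:5795690-5802672) held 21090 and 21752 counts in KO and 16402 and 15437 in WT. Its KO libraries were also both above its WT libraries, by a smaller amount, with a log2 fold change of 0.28 (SE 0.13) that did not pass the test (adjusted p = 0.212). The difference between the Neat1 and Malat1 changes was not tested. The long isoform of Neat1 and the full-length Malat1 end in a triple helix in place of a poly(A) tail, while the short Neat1 isoform is polyadenylated, and the table gives counts per gene, so the isoform behind them was not resolved.

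Lockd lies 3579 bases downstream of Cdkn1b, the gene of the cell cycle inhibitor p27, and its locus is known as an enhancer of that gene. Lockd (chr6:134929092-134956798, plus strand) held 481 and 344 counts in KO and 97 and 136 in WT. Both KO values exceeded both WT values, and the log2 fold change was 1.64 (SE 0.29, adjusted p = 0.00829). Cdkn1b held 1415 and 1269 counts in KO and 645 and 774 in WT, a log2 fold change of 0.75 (SE 0.20, adjusted p = 0.0371). Both genes are on the plus strand, and reads of Cdkn1b transcripts that run past its annotated end would fall toward Lockd. How many counts of Lockd have such an origin was not tested.

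Mirt1, a transcript named for its rise after myocardial infarction, held 57 and 45 counts in KO and 16 and 6 in WT (log2 fold change 2.07, SE 0.54, adjusted p = 0.0358). 4833407H14Rik lies inside Mirt1 on the opposite strand and held 55 and 62 counts in KO and 17 and 18 in WT (1.58, SE 0.45, adjusted p = 0.0484). The exons of these genes overlap, and since the strand setting of the count is not given, they may share reads and are not independent. Each was called in 1 of the 4 fits with a library left out, and Mirt1 moved to 2.78 without WT library 1. The other higher lincRNAs were Gm10451 (1.10, adjusted p = 0.0399), AC165951.5 (2.07, adjusted p = 0.0428) and Gm49451 (1.78, adjusted p = 0.0491). Gm10451 held 180 and 138 counts in KO and 70 and 63 in WT, and the other pair had at most 75 counts in any library. AC165951.5 was called in 0 of the 4 fits with a library left out. These 3 and 4833407H14Rik were named after their values were seen.

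The largest fall was that of D030068K23Rik (ENSMUSG00000097393, chr8:109075222-109273811, plus strand), whose longest annotated transcript has 10 exons, downstream of the transcription factor gene Zfhx3 on the same strand. It held 12 and 10 counts in KO and 113 and 115 in WT. The libraries within each group were almost equal, and the level was 0.899 ± 0.064 CPM in KO and 10.4 ± 1.42 CPM in WT, an 11.5-fold difference. The log2 fold change was -3.52 (SE 0.41, adjusted p = 0.00123) and stayed between -3.66 and -3.38 with any library left out. Zfhx3, the nearest gene tested at 113592 bases, had a log2 fold change of -0.40 (SE 0.44, adjusted p = 0.611).

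A530017D24Rik on chromosome 11 held 12 and 4 counts in KO and 75 and 36 in WT. The counts were low in KO, the groups did not overlap, and the log2 fold change was -2.91 (SE 0.61, adjusted p = 0.0164). It was -3.81 without KO library 1 and -2.37 without KO library 2, where the call was lost (adjusted p = 0.0614). Gm2694 on chromosome 8 held 164 and 114 counts in KO and 258 and 499 in WT, and its WT libraries lay far apart, at 21.5 and 49.6 CPM. Its log2 fold change of -1.65 (SE 0.37, adjusted p = 0.021) became -0.93 without WT library 2. Gm2694 overlaps Cbln1, which encodes a secreted organiser of synapses, on the opposite strand, and Cbln1 had a log2 fold change of -1.25 that did not pass (SE 0.42, adjusted p = 0.0846). The exons of Gm2694 overlap none of Cbln1, but they overlap those of the genes Gm19872 and Gm27016. The 9 primitive endoderm markers and these 3 lincRNAs were all chosen as lower in KO, so being low in the same libraries follows from the calls. The part of primitive endoderm cells in the levels of these lincRNAs was not tested.

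The remaining lincRNAs with known roles were not called. 1700020I14Rik, known as Cyrano, a conserved RNA with a near-perfect miR-7 site, held 1087 and 997 counts in KO and 1075 and 881 in WT, with a log2 fold change of -0.056 (SE 0.15). Bvht, which takes part in heart lineage commitment, had 0.69 (adjusted p = 0.158), and passed only without WT library 2 (1.03, adjusted p = 0.0294) among the fits with a library left out. Dubr, transcribed near Dppa2, held 16 and 16 counts in KO and 35 and 38 in WT, with a log2 fold change of -1.34 (SE 0.49, adjusted p = 0.107). Pvt1, the neighbour of Myc, had -0.59 (adjusted p = 0.301), and WT library 1 with 250 counts stood above the other libraries, which held between 105 and 129. It lies on chromosome 15, whose 554 genes tested had a median of -0.15 for KO over WT. Their median for WT library 1 over WT library 2 was 0.20, and the part of this shift in Pvt1 was not tested. The Pvt1 value was -0.0028 without WT library 1 and -0.997 without WT library 2, where it passed (adjusted p = 0.0202). Halr1, next to the Hoxa genes, had 0.26, which became -0.083 without WT library 2 and 0.70 without WT library 1. Ftx, an activator of Xist in the X-inactivation centre, had -0.14 at 22 to 28 counts a library, a depth at which a small change was not detectable. Both KO libraries lay below both WT libraries for Dubr and, by a small amount, for 1700020I14Rik.

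The 158 lincRNAs took 2.62% and 3.04% of all counts in KO and 3.10% and 3.58% in WT, a KO over WT ratio of 0.847 (exact two-sided permutation test over libraries, p = 0.333, the smallest that 2 against 2 libraries can give). Counting error was small, with 95% exact binomial limits of 2.61% to 2.63% in KO library 1. Most of these counts lay on Gm42418 (chr17:39846958-39848788), which held between 267848 and 328123 counts in each library, 2.10% to 3.10% of the total. Gm42418 overlaps Rn18s-rs5, a RefSeq pseudogene of 18S ribosomal RNA, and Gm26917 ends 617 bases before it on the same strand. Whether the counts at both are reads of ribosomal RNA was not tested. Gm42418 had a log2 fold change of -0.32 (SE 0.13, adjusted p = 0.144). Gm26917 had -0.67 (adjusted p = 0.236), which became 0.095 without WT library 2 and -1.17 without WT library 1.

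Without this pair of genes the order of the groups turned. In KO the remaining lincRNAs made up 0.452% and 0.465% of a library, and in WT 0.353% and 0.365%, a ratio of 1.28 (exact permutation p = 0.333). Malat1 made up 0.166% and 0.185% in KO and 0.135% and 0.156% in WT. With Malat1 also removed the ratio was 1.32. With the pair removed before the fit 17 lincRNAs were higher and 3 lower. Gm13166 and 1810058I24Rik, the next by level among those not called and not yet described, had log2 fold changes of 0.38 (SE 0.19) and -0.42 (SE 0.15, adjusted p = 0.109).

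Many lincRNAs sit beside a protein-coding gene, and position was described because a 3′ tag of a gene that runs past its end can be counted on a lincRNA downstream. Of the 158, 83 lay over 5 kb from any protein-coding gene, 20 were divergent from one, 18 were downstream on the same strand, 10 upstream on the same strand, 10 convergent, 9 overlapped on the opposite strand and 8 on the same strand. Each lincRNA was given 1 class. Where several genes qualified, overlap came first, then downstream, divergent, convergent and upstream. The gene it is paired with below therefore need not be the nearest. The 83 distant lincRNAs held 13 of the 17 higher calls and 1 of the 3 lower calls, with a median log2 fold change of 0.31. The 20 divergent lincRNAs, which lie on the opposite strand with their start facing that of a gene within 5 kb, held 0 calls in either direction by edgeR or DESeq2 (3 higher and 0 lower at an unadjusted edgeR p below 0.05), with a median of 0.21, which was 0.044 with windows of 1 kb and of 10 kb. Of the 18 downstream lincRNAs 3 were higher (Lockd, Neat1 and AC165951.5) and 1 was lower (A530017D24Rik), with a median of -0.059. The 10 lincRNAs upstream on the same strand held 0 calls by edgeR or DESeq2 (0 higher and 2 lower at an unadjusted p below 0.05) and had a median of -0.42. With a window of 10 kb the class again held 10 lincRNAs, of which 1 was higher, and the median was 0.13. No test compared these classes.

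For 64 of the 75 lincRNAs near a gene, that gene was also tested. The log2 fold changes of lincRNA and neighbour had a Pearson correlation of 0.248 over the 64 pairs, which come from the same 4 libraries and are described without a test, and 36 pairs had the same sign. Both genes were called in 1 pair, Lockd with Cdkn1b. The lincRNA alone was called in 4 pairs, the neighbour alone in 9 and neither in 50. Among all protein-coding genes tested 7.97% were higher and 5.1% lower, so called neighbours also occur at the rate of such genes at large. The upstream neighbour of Neat1, Frmd8, had a log2 fold change of -0.0044 (SE 0.18), that of AC165951.5, Dnah8, had -0.054 (SE 0.27), and that of A530017D24Rik, Akap10, had -0.37 (SE 0.24). None of these 3 neighbours was called.

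The reverse also occurred, with neighbours that changed beside lincRNAs that were not called. Kmt2e, a gene of the lysine methyltransferase family, rose by 1.59 (SE 0.18, adjusted p = 0.00113), and 5031425E22Rik, which starts 172 bases from it on the other strand, had 0.41 (SE 0.31). The latter held 125 and 113 counts in KO and 102 and 61 in WT. Tbx3, a T-box transcription factor gene of naive pluripotency, fell by 1.00 (SE 0.16, adjusted p = 0.00489), while the convergent Tbx3os2 had -0.25 (SE 0.52) at 18 to 34 counts a library. Epb41l4a rose by 1.28 (SE 0.19, adjusted p = 0.00362), and Epb41l4aos, 341 bases away, had -0.018 (SE 0.17) with 1295 to 1746 counts a library. Smyd1, a muscle methyltransferase gene, rose by 3.38 (SE 0.33), and Gm1070, which overlaps it on the opposite strand, had 0.53 (SE 0.29). Epb41l4a held 2304 and 2232 counts in KO and 1075 and 641 in WT, so this pair is the best measured of the 4.

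**Figure D4:**
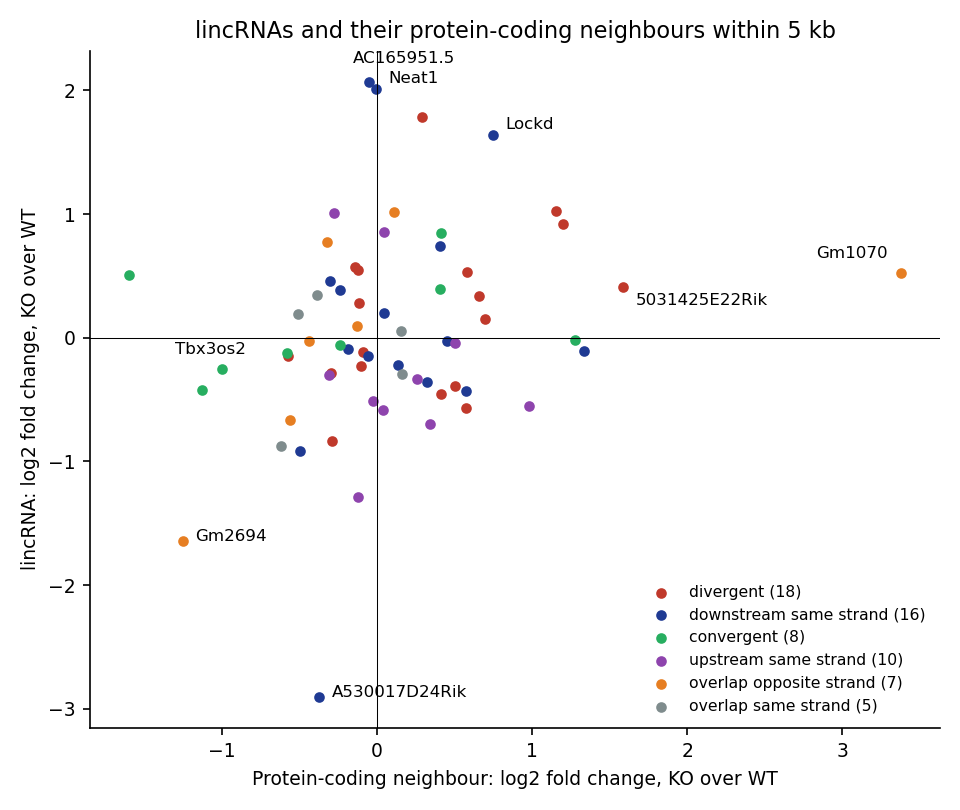
Each point is 1 of 64 pairs of a lincRNA and a protein-coding gene that overlaps it or lies within 5 kb, with the log2 fold change (KO over WT) of the gene on the horizontal axis and of the lincRNA on the vertical axis, coloured by their arrangement. Lockd lies in the upper right with Cdkn1b at 0.75, Neat1 lies on the vertical line at 0, and Gm1070 lies far to the right beside Smyd1 at 3.38.

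Sites for the lost microRNAs were then set beside the changes. Of the 34 lincRNAs with a 7-base site 5 were higher and 1 was lower, with a median log2 fold change of 0.17. Of the 124 without AGCACTT or GCACTTA 12 were higher and 2 lower, with a median of 0.23. When any annotated transcript could hold the site the order of the medians turned. The 40 lincRNAs with a site then held 6 higher and 2 lower calls with a median of 0.31, against 11 higher and 1 lower of 118 with a median of 0.21, and the second lower one was D030068K23Rik. Of the 7 lincRNAs with the 8-base site, 2 were higher (Neat1 and Gm10451) and 1 was lower (A530017D24Rik), with a median of 0.34. Among lincRNAs with the let-7a site CTACCTC, a microRNA outside the cluster, 2 of 26 were higher and 1 was lower, and with the miR-9 site ACCAAAG 3 of 28 were higher and 1 was lower. The median was -0.061 with the let-7a site and 0.48 with the miR-9 site, and these groups share members with the seed site group, among them A530017D24Rik. Of the 15 with GGCACTT, the site of miR-290a-3p, 1 was higher and 1, D030068K23Rik, was lower. GGCACTT was not counted as a site above, so D030068K23Rik was among the 124. The letters were searched on the sense strand only, and a match is a description and not a shown target.

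The site was less frequent in lincRNAs than in messenger RNAs, which are longer. It was found in 21.5% of the lincRNAs and in 36.0% of 11119 protein-coding genes with at least 100 counts, whose median transcript lengths were 1618 and 3440 bases. lincRNAs with a site had a median length of 2946 bases and those without one of 1353. Among the protein-coding genes, 9.81% of those with a site and 7.51% of those without were higher, and 3.69% and 5.85% were lower. Their median log2 fold changes were 0.066 with a site and -0.018 without. A Neat1 site at position 11239 of the long transcript, other than that shown above, holds a stretch known from the B1 family of short interspersed repeats. The windows of Gm48170 and of Malat1 contain this stretch too.
Malat1, chr19:5802069-5802091, minus strand: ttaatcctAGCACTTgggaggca
The run AGCACTTGGGAG held 6 of the 49 AGCACTT sites in the lincRNAs (12.2%) and 324 of 4671 in the protein-coding genes (6.94%). Only exact copies of this run were counted, so diverged copies are not among them. Whether other sites, such as the 8-base site of A530017D24Rik, lie in repeats was not tested. In Neat1 the 5 sites all lie in the long transcript of 20771 bases, the first of them at position 8219 from its start, and the annotated transcript of 3004 bases with nearly the same start holds 0.

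Structure and depth differed among the lincRNAs. The longest annotated transcript of each gene ran from 168 to 93147 bases, and in 33 genes it had 1 exon. Of these 33 lincRNAs 1, Neat1, was higher and 0 were lower by edgeR or DESeq2 (7 and 3 at an unadjusted edgeR p below 0.05), while of the other 125 16 were higher and 3 lower. A poly(A) signal, AATAAA or ATTAAA, lay in the last 50 bases of 61.4% of the lincRNAs and of 74.4% of the protein-coding genes. Of the 97 lincRNAs with the signal 10 were higher and 0 lower (24 and 4 at an unadjusted edgeR p below 0.05, and 9 and 0 by DESeq2), and of the 61 without it 7 were higher and 3 lower. By depth, 8 of the 31 lincRNAs with at least 1000 summed counts were higher and 1 was lower, against 4 higher and 1 lower of the 56 under 200 counts. A change of the same size is harder to call in the shallow ones, so these counts do not rank the groups. On chromosome 19, 3 of 9 lincRNAs were higher, namely Neat1, Mirt1 and 4833407H14Rik, of which the last pair overlap. The share of higher calls was 10.8% over all 158 lincRNAs and 7.42% over all genes tested.

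The lincRNAs varied more between libraries of a group than other genes of the same threshold. The KO libraries differed by more than 2-fold in 11 of the 158 (6.96%) and the WT libraries in 26 (16.5%), while among all genes with at least 100 counts the shares were 3.24% and 6.71%. The median absolute log2 ratio between libraries was 0.32 in KO and 0.49 in WT for the lincRNAs, and 0.20 and 0.28 for all those genes, without matching on depth. Of the 17 higher lincRNAs 10 were called in all 4 fits with a library left out, 2 in 2 fits, 4 in 1 fit and 1 in none. Of the 3 lower ones 2 were called in all 4 fits and 1 in 3. None of the 20 changed sign in these fits. The number of lower calls rose to 8 without WT library 1 and 7 without WT library 2, and the number of higher calls fell to 11 without KO library 1.

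**Figure D5:**
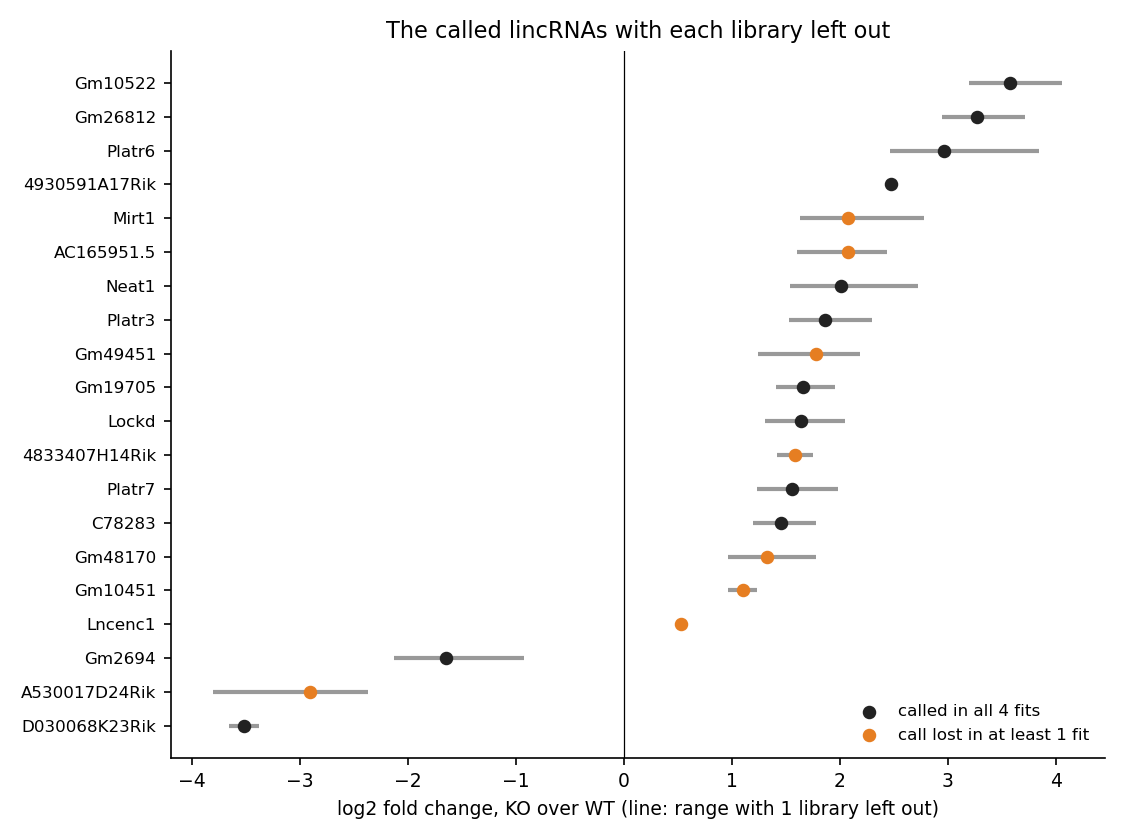
Each row is a called lincRNA, the point is its log2 fold change (KO over WT) over the 4 libraries and the line is its range when each library is left out in turn. Black points were called in all 4 such fits and orange points lost the call in at least 1. The lines of Platr6, Neat1, Mirt1, Gm2694 and A530017D24Rik are among the widest, and no line crosses 0.

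Proteins that act on nuclear non-coding RNA were examined as lists. The nuclear exosome and its adaptors degrade unstable nuclear transcripts, and of 17 such genes tested 0 were higher and 0 lower by edgeR or DESeq2, with a median log2 fold change of -0.15. At an unadjusted edgeR p below 0.05, 0 were higher and 3 lower. Integrator cleaves nascent non-coding and enhancer transcripts, and of its 14 subunit genes 2 were higher and 1 was lower. Over all genes tested 7.42% were higher and 4.96% lower, and a list of this size cannot be told apart from those shares. Ints6 rose by 1.11 (SE 0.16, adjusted p = 0.00363) with 2274 and 2094 counts in KO and 1098 and 746 in WT. Ints3 rose by 0.66 (SE 0.16, adjusted p = 0.0282), and Ints11, the catalytic subunit, fell by 0.67 (SE 0.17, adjusted p = 0.0371). The 3 genes moved in different directions, and the median of the list was -0.092.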

How the data were processed

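Poly(A) RNA of 2 KO and 2 WT libraries was made into QuantSeq 3′ libraries, per the labels' protocols. The authors deposited raw counts per Ensembl gene. The submitters' processing notes list Trim Galore and the build GRCm38. No source used here gives the aligner, the counter or its strand setting. GENCODE vM21 named 55240 identifiers, and 181 were unmatched. Groups came from the sample titles. The 2 groups were compared in edgeR 4.0.16 (R 4.3.3; TMM, filterByExpr, quasi-likelihood F test, two-sided), with Benjamini-Hochberg adjustment over all 14427 genes tested and a threshold of 0.05. The biological coefficient of variation was 0.198. CPM is on the TMM scale, and each SE is the absolute log2 fold change over √F. Chi-square values per degree of freedom were 11.4 within KO, 18.9 within WT and 37.1 to 45.4 between groups, above sampling noise for every pair of libraries.

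Positions and sites were read from GENCODE with Python 3.11.15. The members and the gene lists were chosen with earlier results of these data known. Genes were named by a rule: the 12 higher and 12 lower called lincRNAs with the smallest p and separated groups, the 8 with the highest mean CPM, the members of the lists, the genes at the threshold, and protein-coding genes within 5 kb. Gm10451, AC165951.5, 4833407H14Rik, Gm49451 and nearest genes farther than 5 kb were added after their values were seen. On simulated counts for KO against WT (14082 genes tested) 28.4% of planted 2-fold changes and 92.4% of planted 4-fold changes were called, as were 0.0648% of the genes left unchanged. Alternatives were DESeq2 1.42.0 size factors and its test, other filters and thresholds, thinning, the replicate number as a block, other windows and site definitions, and each library left out. Intervals cover counting error only. The list of paraspeckle protein genes is not reported here as a whole.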

Additional observations from a re-analysis of the deposited data

How the results depend on the processing

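The 17 higher and 3 lower calls became 16 and 3 with DESeq2 size factors, 15 and 3 with the DESeq2 test, and 14 and 3 with libraries thinned to equal depth. A mean CPM of at least 10, which leaves 54 lincRNAs, gave 10 and 1, no filter gave 28 and 6, and leaving out 1 library gave 11 to 23 higher and 2 to 8 lower. A summed count of at least 500 gave 10 and 1, one of at least 50 gave 24 and 6, and lincRNAs without exon overlap gave 13 and 1. Whether the replicate numbers pair the libraries is not given in the labels. The correlation of same-numbered deviations was -0.0703 over 14427 genes, which cannot show how the libraries were handled. With the number as a block 10 were higher, all among the 17, and 3 lower, of which 2 were among the 3, with Gm2694 lost (adjusted p = 0.0696) and Gm42418 gained (adjusted p = 0.046). The median of 0.23 was 0.12 at a mean CPM of at least 10, 0.13 at 500 counts and 0.17 without chromosome 1. It was 0.15 to 0.29 with a library left out. The ratio of count shares, 0.847, was 1.13 without Gm42418 and Malat1 (exact permutation p = 0.667), 1.28 without the ribosomal pair, and 0.784 to 0.913 with a library left out. Leaving out a library gave -1.17 to 0.095 for Gm26917, -0.083 to 0.70 for Halr1, -0.15 to 0.63 for Platr26, -0.53 to 0.12 for Tbx3os2 and -0.18 to 0.14 for Epb41l4aos. At a window of 1 kb only 2 lincRNAs were downstream, with a median of 0.087. Other causes were not tested. Leaving out the ribosomal pair or chromosome 1 was chosen after seeing the data. At 2 libraries a group, changes near 2-fold are often missed.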

Other observations

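Some listed lincRNAs fell below 100 summed counts. Rmst, a neural lincRNA, held 28 and 13 counts in KO and 1 and 3 in WT and passed the test (edgeR log2 fold change 3.11, SE 0.82, adjusted p = 0.0382). Of 4 neural markers Pax6 was also higher in KO, and the part of neural cells was not tested. Xist, the RNA that silences an X chromosome in female cells, held 24 and 9 counts in KO and 8 and 5 in WT and was not tested. Jpx held 2 to 14 counts a library (log2 fold change -1.26, adjusted p = 0.307). Of the 142 lincRNAs tested below the threshold, 10 were higher and 5 lower, with a median of 0.091.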
